A study of Homo sapiens with 8 samples.

Results

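This section describes the conjugating enzymes of hepatic cells that were edited and then bioprinted: the UDP-glucuronosyltransferases (UGT1, UGT2, UGT3 and UGT8 genes), the sulfotransferases (SULT), the glutathione S-transferases (GST of the alpha, kappa, mu, omega, pi, theta and zeta classes, and the membrane-bound MGST1 to MGST3) and the arylamine N-acetyltransferases (NAT1 and NAT2). Members were taken by gene symbol among protein-coding genes. The symbol rule used no measured values, but it was set with earlier results of these data known. They numbered 57 of 58735 annotated genes, of which 19951 were protein-coding. Of the 57, 27 reached at least 1 FPKM (fragments per kilobase of gene, relative to library size) in at least 2 libraries and were tested, 22 had reads but did not reach that level, and 8 had 0 reads in all 8 libraries (GSTT4, SULT1C3, SULT1C4, SULT6B1, UGT2A2, UGT2B11, UGT2B15 and UGT2B28).

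Bulk RNA sequencing covered 3 groups of human HepaRG cells, a hepatic progenitor line that can form hepatocyte-like and biliary-like cells and that the labels call hepatic stem cells of liver. HepaRG plate (3 libraries) was the wild-type line in planar culture. M14A plate (3 libraries) was a gene-edited derivative in the same planar culture, whose genotype label reads FoxM1/HNF4A transfected. M14A printed (2 libraries) was that derivative, detached, mixed into the bioink named GP and collected 4 h after printing. Before RNA extraction, the printed material was snap-frozen and ground in a mortar, whereas plate cells were spun down after detachment, so effects of printing and of collection cannot be told apart. M14A is 1 derived line, and nothing in the labels says whether libraries of a group came from separate cultures, so the p-values speak only of the variation among these libraries, which may be technical. In bulk RNA, a change in the share of cells of a type and a change in RNA per cell cannot be told apart.

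Conjugation is the second phase of the handling of drugs, hormones and waste products by the liver. UGT enzymes sit in the endoplasmic reticulum and attach glucuronic acid from UDP-glucuronate, SULT enzymes in the cytosol attach sulfate from PAPS, GST enzymes attach glutathione to electrophiles, and NAT enzymes attach acetyl groups from acetyl-CoA. The 9 UGT1A genes form a single locus in which each gene has its own first exon and promoter and all share the remaining exons, so choice of promoter decides which enzyme is made. Among textbook regulators of these genes are the receptors AHR, PXR (NR1I2) and CAR (NR1I3), the hepatocyte factor HNF4A, and NRF2 (NFE2L2), which acts through antioxidant response elements.

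Libraries held 15632154 to 19148262 reads recovered from the values. HNF4A, 1 of the 2 genes in the genotype label, ranged from 5.67 to 6.50 FPKM in HepaRG plate and from 37.9 to 43.1 in M14A plate, and printed cells had 13.6 and 17.1, while FOXM1 was 12.9 to 14.9, 8.92 to 13.0 and 10.1 in both printed libraries. The summed level of 8 hepatocyte markers ran from 24.8 to 26.9 FPKM in HepaRG plate, from 498 to 607 in M14A plate and from 767 to 788 in printed cells. Most of the sum in M14A cells came from SERPINA1 (mean 9.55, 334 and 459 FPKM) and FGB (2.11, 120 and 202). ALB (2.19, 26.3 and 81.2) and APOA1 (0.238, 3.38 and 8.07) also rose at each step. APOB was 11.2, 53.7 and 26.1 FPKM, and AFP was 0.653, 0.372 and 0.778. TTR and TF, which define hepatocytes, did not exceed 0.283 and 0.325 FPKM in any library. FPKM totals over all genes also rose, as given below, so these sums hold for the deposited scale only. Summed biliary markers were 45.5 to 49.9, 15.4 to 53.2 and 32.5 to 37.3 FPKM, mostly from KRT19 (mean 42.7, 24.1 and 26.9). KRT7 was higher in both M14A groups (mean 0.463, 2.03 and 5.74 FPKM) and SOX9 was lower (3.66, 2.04 and 2.24). EPCAM was low in HepaRG plate (0.0863 to 0.253 FPKM) and 0 in all M14A libraries. Fibroblast and stellate markers summed to 18.1 to 19.99, 26.8 to 58.9 and 71.6 to 80.4 FPKM, leukocyte markers to 2.26 to 2.89, 6.60 to 10.6 and 9.94 to 11.8, with PTPRC at 0 in printed cells, and endothelial markers to at most 2.18, with CDH5 at 0 throughout. The fibroblast and stellate sum moved with DCN (mean 3.15, 27.9 and 50.2 FPKM in HepaRG plate, M14A plate and printed cells) and LUM (11.9, 18.5 and 25.5), whereas COL1A1 (1.91, 0.785 and 0.270) and PDGFRB (1.80, 0.0698 and 0.0983) were lower in both M14A groups than in HepaRG plate. The part of these cell type markers in the results below was not tested. In the M14A plate group, library 1 was unlike the other 2 (Pearson r of log2 values across genes 0.957 and 0.948, against 0.988 between libraries 2 and 3), and results that turn on it are given with and without it.

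Promoter sequence is shown first for the genes on which the results turn. Each run is the 250 bases before the RefSeq start (GRCh38.p14), 5′ to 3′ on the gene's strand. UGT1A8, UGT1A9 and UGT1A7 are shown because they lie close together on chromosome 2, share sequence and moved alike. UGT1A10, which lies between UGT1A8 and UGT1A9 and also had fewer reads in the edited line, had no promoter window to show. Capitals in these 3 mark the longest run that all of them share, GTAAATCATTG (11 bases), which 1 other gene's promoter in the table also held, and the letters CACGC, the complement of the AHR core GCGTG. UGT1A8 and UGT1A9 also share a run of 27 bases that begins just before CACGC. The windows were chr2:233617383-233617632, chr2:233671648-233671897 and chr2:233681651-233681900, all on the plus strand.
UGT1A8: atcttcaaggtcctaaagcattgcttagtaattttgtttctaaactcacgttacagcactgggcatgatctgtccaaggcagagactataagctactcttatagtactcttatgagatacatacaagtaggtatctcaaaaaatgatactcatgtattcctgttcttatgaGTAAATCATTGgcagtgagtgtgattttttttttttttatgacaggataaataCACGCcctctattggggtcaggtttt
UGT1A9: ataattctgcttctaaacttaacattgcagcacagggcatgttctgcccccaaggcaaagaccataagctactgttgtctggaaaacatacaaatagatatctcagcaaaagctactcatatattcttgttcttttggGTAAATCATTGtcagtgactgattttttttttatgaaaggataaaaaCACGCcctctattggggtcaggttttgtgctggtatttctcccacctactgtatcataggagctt
UGT1A7: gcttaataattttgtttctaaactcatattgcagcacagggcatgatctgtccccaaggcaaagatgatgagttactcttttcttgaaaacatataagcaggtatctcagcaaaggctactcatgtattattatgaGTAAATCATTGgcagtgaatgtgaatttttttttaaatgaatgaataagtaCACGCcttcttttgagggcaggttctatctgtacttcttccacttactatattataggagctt
UGT1A6, the next gene along the locus, is shown because it moved the other way. It has 2 starts in the table, and capitals mark GCGTG before the first (chr2:233691452-233691701, plus strand) and a match to the antioxidant response core TGACNNNGC before the second (chr2:233692640-233692889, plus strand), on either strand.
UGT1A6 first start: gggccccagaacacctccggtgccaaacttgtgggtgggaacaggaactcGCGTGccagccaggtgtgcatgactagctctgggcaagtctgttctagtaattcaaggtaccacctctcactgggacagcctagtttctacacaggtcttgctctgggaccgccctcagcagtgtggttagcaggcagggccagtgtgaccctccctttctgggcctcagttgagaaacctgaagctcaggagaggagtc
UGT1A6 second start: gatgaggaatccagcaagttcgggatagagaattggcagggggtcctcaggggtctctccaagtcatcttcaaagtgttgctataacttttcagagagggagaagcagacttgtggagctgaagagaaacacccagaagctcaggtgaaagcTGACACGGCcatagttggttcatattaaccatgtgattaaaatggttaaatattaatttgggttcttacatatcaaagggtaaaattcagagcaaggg
GSTA1 (chr6:52803817-52804066, minus strand) and GSTA2 (chr6:52763476-52763725, minus strand) are shown because their promoters are near-copies. They are identical at 97.2% of the 250 positions, and capitals mark the 7 that differ.
GSTA1: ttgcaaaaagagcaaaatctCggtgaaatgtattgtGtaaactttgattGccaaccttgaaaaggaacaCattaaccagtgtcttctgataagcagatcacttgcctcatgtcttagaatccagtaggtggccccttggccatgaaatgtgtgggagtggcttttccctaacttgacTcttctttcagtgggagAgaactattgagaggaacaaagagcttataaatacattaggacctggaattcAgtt
GSTA2: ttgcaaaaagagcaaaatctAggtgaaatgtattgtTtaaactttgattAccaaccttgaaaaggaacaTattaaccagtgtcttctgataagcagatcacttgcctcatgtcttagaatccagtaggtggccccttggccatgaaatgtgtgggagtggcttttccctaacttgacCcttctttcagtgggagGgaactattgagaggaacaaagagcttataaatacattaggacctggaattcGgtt
GSTP1 (chr11:67583562-67583811, plus strand) is shown because it had reads in HepaRG plate and none in the edited line. Capitals mark a match to the antioxidant response core, which starts 66 bases before the start.
GSTP1: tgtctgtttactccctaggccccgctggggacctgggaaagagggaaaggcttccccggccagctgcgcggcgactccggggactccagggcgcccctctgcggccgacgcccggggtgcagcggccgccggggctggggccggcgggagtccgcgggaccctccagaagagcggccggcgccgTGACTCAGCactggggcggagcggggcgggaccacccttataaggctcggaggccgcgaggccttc

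Promoters were searched for 46 of the 57 members, in 53 windows of 300 bases (250 before to 50 after the start). Members without a window included SULT1A1, SULT1A2, GSTT2B and UGT1A10. NAT1 and NAT2 were not searched because chromosome 8 was left out for members, though not for the promoters of all genes. On either strand, TGACNNNGC was found for 11 members (20.8% of windows, against 13.3% of all 35116 promoters), GCGTG for 15 (30.2% of windows against 36.5%), and CAAAGTCCA, letters bound by HNF4, for 0 members (0.384% of all). Such matches describe letters in these windows only. No match was found for UGT2B7, UGT2A3, GSTA1 or GSTA2.

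**Figure D1:**
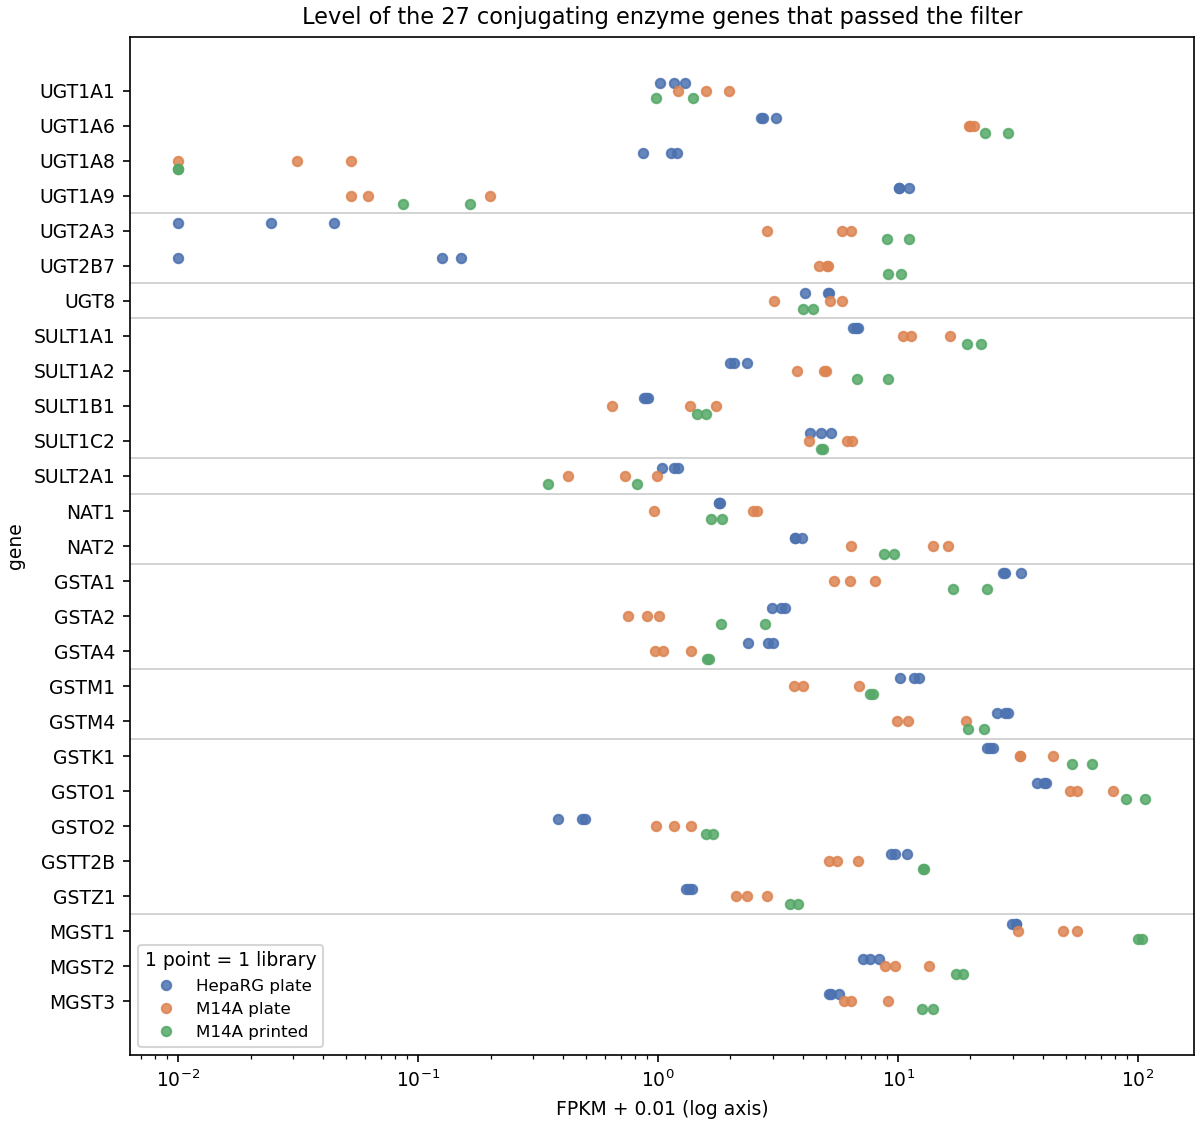
FPKM + 0.01 (log axis) of the 27 tested members, 1 point for each library, by family from top to bottom. UGT1A6 and UGT1A9 change places between HepaRG plate and the M14A groups, UGT2A3 and UGT2B7 lie below 0.2 FPKM in HepaRG plate, and GSTO1 and MGST1 are the highest members in printed cells.

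The first comparison set the edited line against the wild-type line in planar culture. In the edited line, UGT1A6, UGT2B7, UGT2A3, NAT2, SULT1A1 and SULT1A2 rose, while UGT1A9, UGT1A8 and the alpha and mu GST genes fell. With limma on log2(FPKM + 1) over 14349 genes, and a call at a Benjamini-Hochberg adjusted p below 0.05, 10 of the 27 tested members were higher (16.1% of all genes tested were), 8 were lower (14.7% of all) and 9 were not called. The median log2 fold change of the members was 0.25, against -0.04 for all genes tested. The sum of all 57 members was 238 ± 2.78 FPKM in HepaRG plate and 274 ± 17.4 in M14A plate (SD, n = 3 each), and each M14A plate library (259 to 294) lay above each HepaRG library (236 to 241). FPKM totals over all genes were higher too, at 254141 to 266419 in HepaRG plate and 272290 to 350931 in M14A plate. The rise of the member sum was therefore not separated from that of the totals.

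In the UGT1A locus (chromosome 2, plus strand, from the UGT1A8 start at 233617645 to 233773310) the gene read most changed from UGT1A9 to UGT1A6. UGT1A6, which glucuronidates small planar phenols, was 3.10, 2.73 and 2.68 FPKM in HepaRG plate, 20.8, 19.6 and 19.9 in M14A plate and 23.1 and 28.8 in printed cells. Every M14A library lay above every HepaRG library. UGT1A6 rose by 2.46 on the log2 scale (SE 0.12, limma adjusted p = 2.5e-06), a 7.09-fold ratio of mean FPKM. UGT1A9, which conjugates bulky phenols such as propofol, was 10.1, 11.1 and 10.1 FPKM in HepaRG plate, 0.0518, 0.0424 and 0.189 in M14A plate and 0.155 and 0.0766 in printed cells. Its groups did not overlap, and it had 1583 reads in the 3 HepaRG libraries against 13 in the 3 M14A plate libraries. UGT1A9 fell by 3.38 on the log2 scale (SE 0.11, limma adjusted p = 2.8e-07).

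UGT1A8, mostly known from the gut, was 1.12, 1.19 and 0.853 FPKM in HepaRG plate, 0, 0.0425 and 0.0211 in M14A plate and 0 in both printed libraries. It fell by 1.01 on the log2 scale (SE 0.12, limma adjusted p = 3.1e-04). From reads (160 against 3) it was 46.9-fold lower, with an exact 95% interval of 15.8 to 229.8 that covers counting error only. UGT1A7 and UGT1A10 did not reach the level for testing. UGT1A7 was 0.280, 0.438 and 0.481 FPKM in HepaRG plate and 0.0366 to 0.0737 in M14A plate, and UGT1A10 was 0.185, 0.262 and 0.333 FPKM against 0 reads in all 5 M14A libraries, at least 15.1-fold lower in M14A plate (floor of 3 reads over the group). These 4 genes, UGT1A8, UGT1A10, UGT1A9 and UGT1A7, have the 4 first exons furthest upstream in the table, and each had fewer reads in the edited line. UGT1A1, the bilirubin enzyme at the downstream end of the locus, was 1.01 to 1.28 FPKM in HepaRG plate and 1.20 to 1.96 in M14A plate, with overlapping groups (log2 fold change 0.25, SE 0.14, limma adjusted p = 0.21). UGT1A3 and UGT1A5 had 27 and 28 reads in all 8 libraries.

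As a share of all reads counted for UGT1A genes, UGT1A9 held 48.3, 51.6 and 49.3% in HepaRG plate and 0.110, 0.0933 and 0.404% in M14A plate. UGT1A6 held 31.9, 27.2 and 28.1% and then 94.7, 92.7 and 91.0%, and UGT1A1 held 8.97 to 11.6% and then 4.74 to 7.71%. The shared exons make up 40.6 to 80.0% of the exon bases of each UGT1A gene, and how the counting assigned reads on them is not given in the sources used here, so the level of each single gene is uncertain to that extent. The FPKM of all UGT1A genes, summed to 1 feature, rose by 0.41 on the log2 scale (SE 0.12, limma adjusted p = 0.035), a far smaller step than that of either gene. The reads counted for them rose more, from 948, 1193 and 1034 in HepaRG plate to 1815, 2144 and 2230 in M14A plate. FPKM divides reads by gene length, which is 5180 bases for UGT1A6 and 2416 for UGT1A9.

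**Figure D2:**
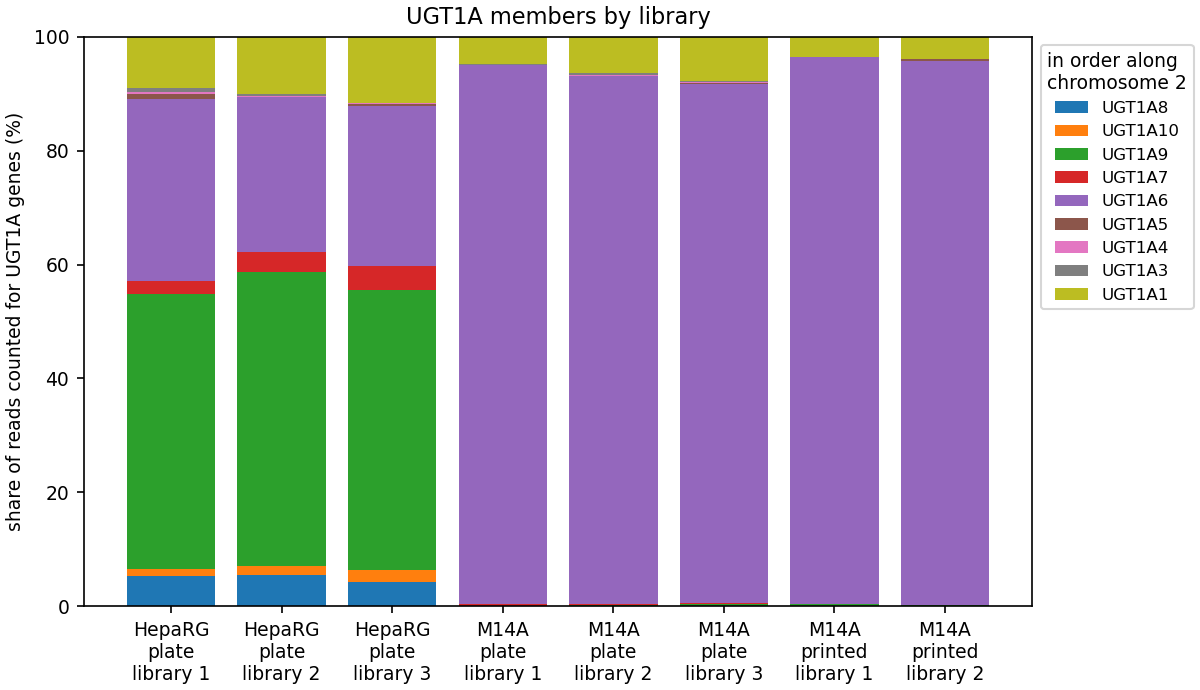
Share of the reads counted for the 9 UGT1A genes in each library (percent, stacked bars, 1 bar per library), with genes stacked in chromosome order. UGT1A9 takes 48.3 to 51.6% in HepaRG plate and at most 0.404% in the 5 M14A libraries, where UGT1A6 takes 91.0 to 96.1%.

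The UGT2 genes were nearly silent in the wild-type line. UGT2B7, which conjugates morphine and steroid hormones, was 0.141, 0.116 and 0 FPKM in HepaRG plate, 5.04, 5.10 and 4.68 in M14A plate and 10.3 and 9.04 in printed cells. It rose by 2.45 on the log2 scale (SE 0.11, limma adjusted p = 1.4e-06), and its reads went from 12 to 615. UGT2A3, a bile acid UGT, was 0.0347, 0.0142 and 0 FPKM in HepaRG plate, 2.84, 5.84 and 6.37 in M14A plate and 9.004 and 11.1 in printed cells, so the lowest M14A value was library 1. It rose by 2.51 on the log2 scale (SE 0.23, limma adjusted p = 7.7e-05). The 3 reads of UGT2A3 in HepaRG plate against 872 in M14A plate give a 331-fold ratio with an exact 95% counting interval of 113 to 1606. The other 8 UGT2 members together had few reads: UGT2B17 had 13, UGT2B4 4, UGT2A1 3 and UGT2B10 1 over all libraries, and the other 4 had 0.

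Outside these subfamilies, UGT3A1, which uses N-acetylglucosamine in place of glucuronate, was 0.00626, 0.00513 and 0.0113 FPKM in HepaRG plate, 0.819, 0.779 and 0.796 in M14A plate and 0.977 and 1.13 in printed cells. Only 1 library reached 1 FPKM, so it was tested only without the filter on low values, where it rose by 0.84 on the log2 scale (SE 0.09, limma adjusted p = 0.0011). UGT3A2 had 22 reads in all. UGT8, which makes galactosylceramide and takes no part in drug conjugation, was 4.08 to 5.17 FPKM in HepaRG plate and 3.02 to 5.85 in M14A plate (log2 fold change -0.06, limma adjusted p = 0.86).

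Among sulfotransferases the SULT1A pair rose. SULT1A1, the main phenol sulfotransferase of liver, was 6.80, 6.48 and 6.66 FPKM in HepaRG plate, 16.4, 11.3 and 10.5 in M14A plate and 22.2 and 19.4 in printed cells. Its groups did not overlap, and it rose by 0.82 on the log2 scale (SE 0.17, limma adjusted p = 0.0065). SULT1A2, its close neighbour on chromosome 16, was 2.05, 1.99 and 2.33 FPKM, then 5.01, 3.78 and 4.91, then 9.06 and 6.75, and it rose by 0.83 (SE 0.15, limma adjusted p = 0.0030). The SULT1A genes are near-copies, so counting could have split or lost reads between them, and SULT1A3 (102 reads in all) shares 70.7% of its exon bases with other genes. The other 3 tested members were not called: SULT1C2 was 4.30 to 5.25 FPKM in HepaRG plate and 4.25 to 6.39 in M14A plate, SULT1B1 was 0.859 to 0.899 and 0.630 to 1.73, and SULT2A1, the hydroxysteroid sulfotransferase that marks mature liver, was 1.03 to 1.20 and 0.412 to 0.976.

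Of the acetyltransferases, NAT2, the polymorphic enzyme that acetylates isoniazid in liver, rose. It was 3.70, 3.95 and 3.72 FPKM in HepaRG plate, 6.34, 13.9 and 16.1 in M14A plate and 8.76 and 9.61 in printed cells. M14A plate library 1 was the lowest of its group but still above every HepaRG library, and NAT2 rose by 1.36 on the log2 scale (SE 0.28, limma adjusted p = 0.0064). NAT1, which most tissues express, was 1.78 to 1.79 FPKM in HepaRG plate and 0.948, 2.57 and 2.47 in M14A plate (log2 fold change 0.05, limma adjusted p = 0.88).

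The alpha and mu GST genes fell together, at 3 of 3 and 2 of 2 tested members. GSTA1, the main alpha-class enzyme of hepatocytes, was 27.8, 32.4 and 27.5 FPKM in HepaRG plate, 7.98, 6.28 and 5.39 in M14A plate and 23.5 and 16.9 in printed cells. It fell by 2.01 on the log2 scale (SE 0.18, limma adjusted p = 5.6e-05), and mean FPKM was 4.46-fold lower. GSTA2, with the near-identical promoter shown above, was 3.24, 2.98 and 3.38 FPKM, then 1.00, 0.741 and 0.890, then 1.82 and 2.77, and it fell by 1.16 (SE 0.14, limma adjusted p = 3.0e-04). Reads of GSTA1 and GSTA2 may be hard to place because the genes are close copies. GSTA4, which removes the lipid peroxidation product 4-hydroxynonenal, was 2.37, 2.86 and 2.99 FPKM, then 1.04, 1.37 and 0.958, then 1.58 and 1.62, and it fell by 0.82 (SE 0.12, limma adjusted p = 0.0013).

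In the mu class, GSTM1 was 12.2, 10.2 and 11.6 FPKM in HepaRG plate, 6.85, 4.00 and 3.68 in M14A plate and 7.61 and 7.88 in printed cells, and it fell by 1.12 (SE 0.19, limma adjusted p = 0.0029). GSTM4 was 27.9, 25.9 and 28.8 FPKM, then 19.3, 11.0 and 9.84, then 22.8 and 19.5, and it fell by 1.04 (SE 0.22, limma adjusted p = 0.0081). For both genes M14A plate library 1 was the highest of its group and still below every HepaRG library. GSTM1 shares 38.3% of its exon bases with other genes, so its reads and those of GSTM2 are uncertain. GSTM2 was 0.398 to 0.534 FPKM in HepaRG plate and 0.0836 to 0.135 in M14A plate, GSTM3 went from 30 reads to 1, and GSTM5 from 29 reads to 0, at least 8.53-fold lower.

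GSTP1, the pi-class enzyme that is high in biliary and progenitor cells, was 0.472, 0.820 and 0.400 FPKM in HepaRG plate (69 reads) and had 0 reads in all 5 M14A libraries, at least 19.8-fold lower in M14A plate. In the theta class, GSTT2B was 9.37, 9.74 and 10.9 FPKM in HepaRG plate, 6.78, 5.13 and 5.55 in M14A plate and 12.8 and 12.7 in printed cells, and it fell by 0.69 (SE 0.13, limma adjusted p = 0.0040).

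Genes of the kappa, omega and zeta classes went the other way, at 4 of 4 tested members. GSTK1, a mitochondrial and peroxisomal enzyme, was 23.4, 24.2 and 24.9 FPKM in HepaRG plate, 44.3, 32.3 and 32.1 in M14A plate and 64.0 and 53.3 in printed cells, and rose by 0.55 (SE 0.16, limma adjusted p = 0.028). GSTO1, a glutathione-dependent reductase, was 40.5, 38.1 and 41.5 FPKM, then 78.9, 51.8 and 55.5, then 107 and 89.5, and rose by 0.60 (SE 0.17, limma adjusted p = 0.031). In both genes M14A plate library 1 was the highest of its group. GSTO2 was 0.487, 0.469 and 0.371 FPKM, then 1.36, 1.15 and 0.973, then 1.68 and 1.58, and rose by 0.58 (SE 0.12, limma adjusted p = 0.0057). GSTZ1, which also serves tyrosine breakdown as maleylacetoacetate isomerase, was 1.33, 1.38 and 1.29 FPKM, then 2.83, 2.34 and 2.10, then 3.82 and 3.53, and rose by 0.55 (SE 0.12, limma adjusted p = 0.0074). The 3 microsomal genes were not called, with log2 fold changes of 0.51 (MGST1, limma adjusted p = 0.080), 0.40 (MGST2, 0.088) and 0.34 (MGST3, 0.13).

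Of these 18 calls, 8 of 10 rises and 8 of 8 falls remained under every alternative setting in which the gene was tested. The rises of GSTK1 and GSTO1 were lost when HepaRG plate library 1, 2 or 3 was left out (log2 fold changes of 0.53 to 0.57 and 0.56 to 0.62) and when genes of low level were kept. Without M14A plate library 1, 15 members were higher, with MGST1, NAT1, SULT1B1, SULT1C2 and UGT1A1 added, and 8 lower. When every library was scaled to the same FPKM total, the share of all calls that were higher went from 52.3% to 38.0%, with a median over all genes of -0.20, and members were 10 higher and 9 lower.

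**Figure D3:**
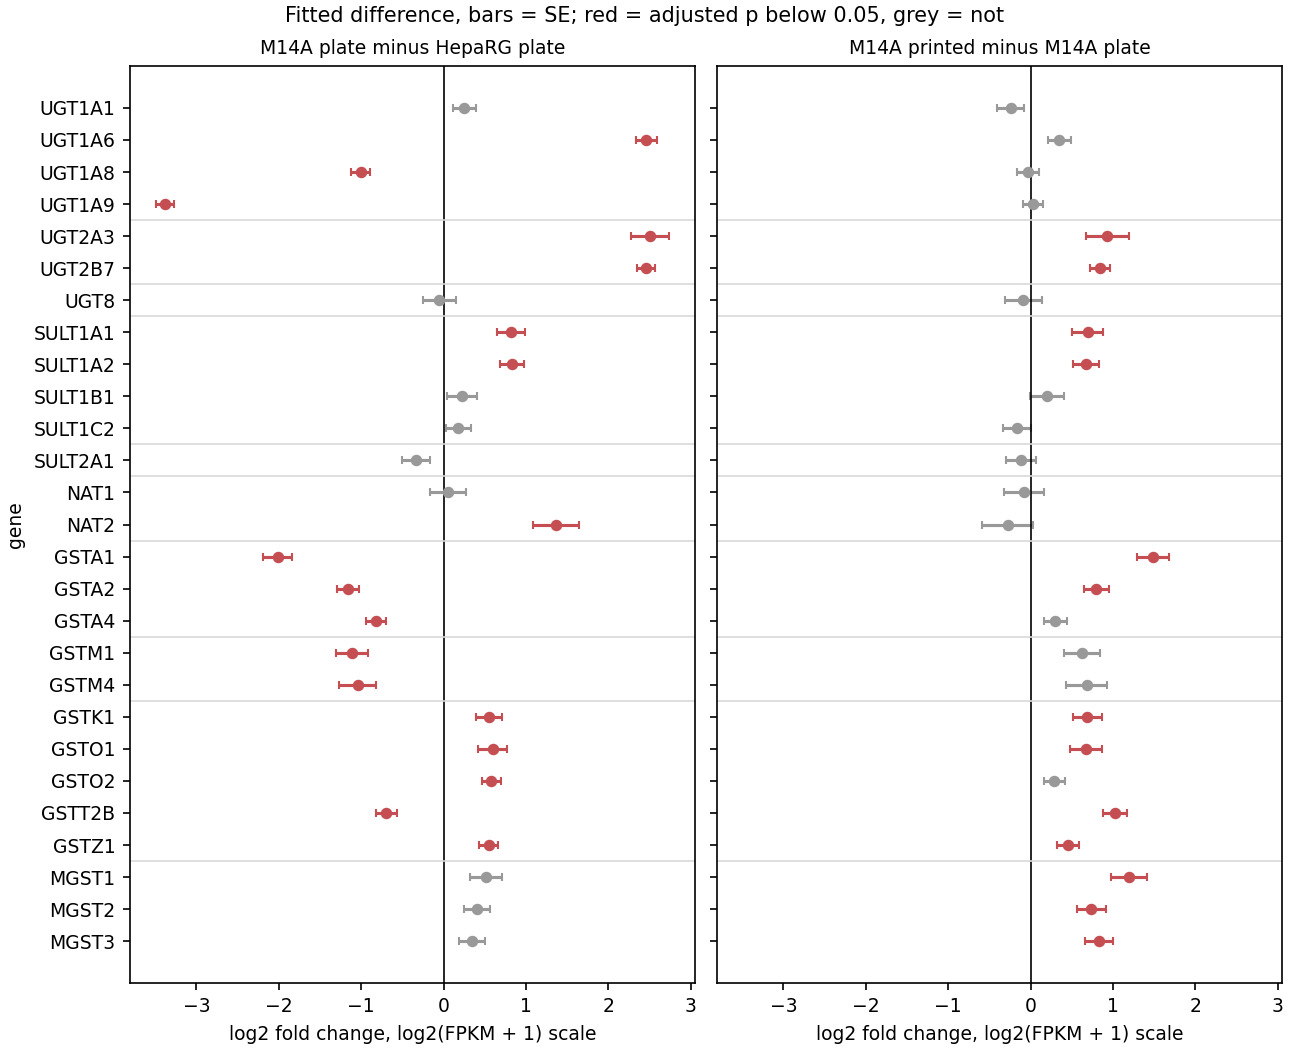
Fitted log2 fold change of the 27 tested members (x axis, log2(FPKM + 1) scale, bars give the SE) for M14A plate minus HepaRG plate (left) and M14A printed minus M14A plate (right), red where called. On the left 10 members lie above 0 and 8 below among those called, and on the right all 13 called members lie above 0 on the deposited scale, of which 2 stay called with equal FPKM totals.

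Genes that supply the co-substrates were described from lists of pathway members, chosen with earlier results of these data known. The counts stand beside 16.1% of all genes tested that were higher and 14.7% that were lower. On the UDP-glucuronate list, 2 of 6 tested genes rose and 1 fell in the edited line. This list also held transporters of other nucleotides and nucleotide sugars, and GUSB, which removes glucuronate. UGDH, which makes UDP-glucuronate, was 74.2 to 79.4 FPKM in HepaRG plate and 22.8 to 35.5 in M14A plate (log2 fold change -1.32, SE 0.18, limma adjusted p = 7.2e-04). The nucleotide sugar transporters SLC35D1 and SLC35D2 rose by 0.62 and 0.54. For sulfate and PAPS, 6 of 10 rose and 1 fell: PAPSS2, which makes PAPS, went from 6.20 to 6.32 FPKM up to 15.9 to 19.3 (1.31, SE 0.12, limma adjusted p = 7.8e-05), STS, which removes sulfate, rose by 0.87, and the sulfate transporter SLC26A2 fell by 1.80. For glutathione synthesis and turnover, 1 of 15 rose and 6 fell: the cystine importer SLC7A11 went from 26.4 to 29.5 FPKM down to 0.869 to 2.47 (-3.40, SE 0.23, limma adjusted p = 1.2e-05), GCLM, a subunit of the rate-limiting enzyme of glutathione synthesis, fell by 2.39, and GGT1, which cleaves glutathione outside the cell, rose by 3.03.

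Of 8 ABC exporters tested, 2 were higher (ABCC6 by 1.69, ABCB1 by 1.46). The list did not separate pumps of conjugates from pumps of other substrates. The 2 that were lower were ABCC1, a glutathione conjugate pump, by 1.11 and ABCC3, a glucuronide pump, by 0.61. For these lists too, the shares of all genes tested were 16.1% higher and 14.7% lower. Among receptors and factors, 4 of 17 rose and 5 fell: HNF4A, which the genotype label names, rose by 2.55, and PPARA fell by 1.19 and CEBPA by 0.78. All 10 tested NRF2 targets outside the families fell, led by NQO1 (184 to 190 FPKM in HepaRG plate, 0.125 to 0.462 in M14A plate, log2 fold change -7.21, SE 0.13, limma adjusted p = 2.0e-08) and HMOX1 (-2.17). Of 5 tested genes listed as other conjugating enzymes, NNMT and ACSL1 rose by 2.20 and 0.99 and 0 fell (0 also at an unadjusted p below 0.05). ACSL1 is an acyl-CoA synthetase rather than a conjugating enzyme. These counts moved when 1 library was left out: NRF2 targets lower to 6 without HepaRG plate library 1 or 2 and to 7 without HepaRG plate library 3 or M14A plate library 2 or 3, sulfate genes higher to 3 without any 1 HepaRG library, UDP-glucuronate genes higher to 0 without HepaRG plate library 1 or 3 and to 1 without HepaRG plate library 2 or M14A plate library 3, and glutathione genes higher to 2 without M14A plate library 3 and lower to 10 without M14A plate library 1. Receptors and factors lower were 1 to 3 without any 1 HepaRG library or M14A plate library 2 or 3, and 8 without M14A plate library 1. With equal FPKM totals SLC35D1 was no longer called, and 9 glutathione genes and 7 receptors and factors were lower, while 3362 of all 14349 genes tested were.

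The second comparison set printed cells against the same edited line in planar culture. On the deposited scale, MGST1, MGST2 and MGST3, GSTA1, GSTA2, GSTK1, GSTO1, GSTT2B and GSTZ1 rose, together with SULT1A1, SULT1A2, UGT2B7 and UGT2A3. Limma called 13 of 27 members higher (17.7% of all genes tested were), 0 lower (15.5% of all) and 14 not. At an unadjusted p below 0.05, and with voom weights on the recovered reads, 0 were lower as well. The median log2 fold change of the members was 0.62, against 0.01 for all genes tested, and the summed level of all 57 members was 274 ± 17.4 FPKM (SD, n = 3) in M14A plate, against 478 and 445 in printed cells. FPKM totals over all genes also rose, as given below, so the rise of this sum holds for the deposited scale only. Both comparisons share the M14A plate libraries, so they are not independent and are not set against each other.

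Most of these calls changed with the scaling. The FPKM totals ran from 272290 to 350931 for M14A plate, against 499995 and 514152 for printed cells, and mitochondrial genes took 8.21 to 9.72% and 13.3 and 16.4% of reads. With every library at the same FPKM total, the median log2 fold change over all genes was -0.51, 6.96% of all calls were higher in place of 53.3%, and 2 members stayed higher (GSTA1 and GSTT2B) while SULT1C2 (-0.79) and UGT1A1 (-0.64) were called lower. Relative to the median of all genes, the members' median was 0.61 higher on the deposited scale and 0.47 higher with equal totals, and 20 and 22 of the 27 lay above the median of all genes. The part of mitochondrial reads and RNA quality in these values was not tested.

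**Figure D4:**
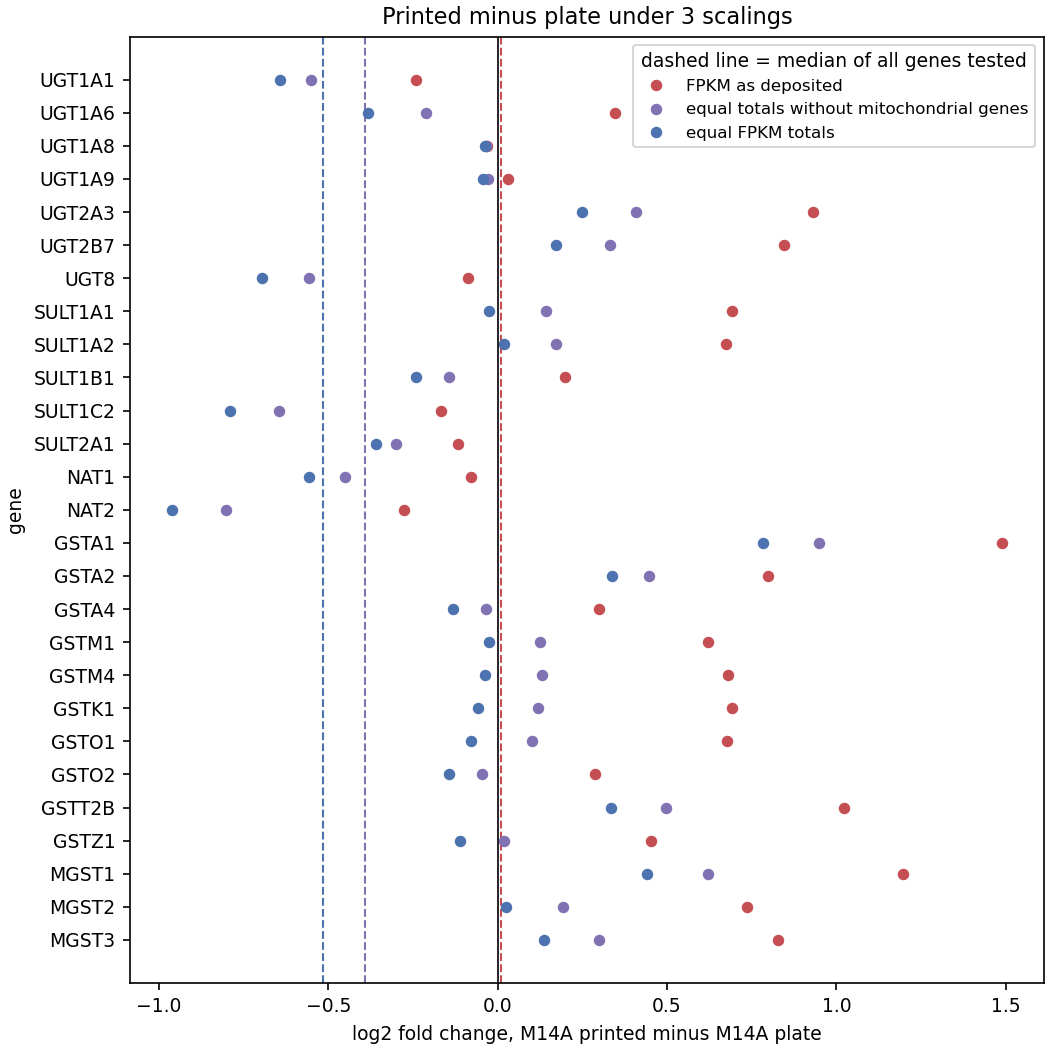
Log2 fold change of the 27 tested members in printed cells against M14A plate (x axis) under 3 scalings, with a dashed line at the median of all genes tested under each. From the deposited scale to equal totals the median of all genes moves from 0.01 to -0.51 and the members move left with it, except UGT1A8 and UGT1A9, which stay within 0.05 of 0, with GSTA1 the furthest right under each of the 3 scalings.

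GSTA1, given above, was 5.39 to 7.98 FPKM in M14A plate and 23.5 and 16.9 in printed cells, so both printed libraries lay above the plate group and below HepaRG plate (27.5 to 32.4). It rose by 1.49 on the log2 scale (SE 0.20, limma adjusted p = 0.0013) and by 0.78 with equal totals (limma adjusted p from 2.7e-04 to 0.015 over all alternatives). GSTT2B rose by 1.02 (SE 0.14, limma adjusted p = 0.0016), from 5.13 to 6.78 FPKM up to 12.8 and 12.7. GSTA2 rose by 0.80 (SE 0.15, limma adjusted p = 0.0053), but with equal totals its value was 0.34 (limma adjusted p = 0.080).

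All 3 membrane-bound transferases rose on the deposited scale. MGST1, an abundant enzyme of the endoplasmic reticulum and outer mitochondrial membrane that also reduces lipid peroxides, was 31.1, 29.9 and 30.8 FPKM in HepaRG plate, 31.6, 48.5 and 55.7 in M14A plate and 100.4 and 104 in printed cells. The printed libraries lay well above all others, and MGST1 rose by 1.20 (SE 0.22, limma adjusted p = 0.0046), a 2.26-fold ratio of mean FPKM. MGST2 was 7.61, 7.12 and 8.33 FPKM, then 13.4, 9.66 and 8.83, then 18.7 and 17.5, and rose by 0.74 (SE 0.18, limma adjusted p = 0.014). MGST3 was 5.23, 5.12 and 5.64 FPKM, then 9.04, 6.38 and 5.96, then 13.9 and 12.5, and rose by 0.83 (SE 0.17, limma adjusted p = 0.0079). With equal totals the values were 0.44, 0.025 and 0.14, none of them called.

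UGT2B7 rose by 0.84 (SE 0.12, limma adjusted p = 0.0019) and UGT2A3 by 0.93 (SE 0.26, limma adjusted p = 0.025), so that printed cells held the highest levels of both, at 9.04 to 10.3 and 9.004 to 11.1 FPKM. SULT1A1 rose by 0.69 (SE 0.19, limma adjusted p = 0.022), SULT1A2 by 0.67 (SE 0.16, limma adjusted p = 0.014), GSTK1 by 0.69 (SE 0.17, limma adjusted p = 0.017), GSTO1 by 0.68 (SE 0.19, limma adjusted p = 0.029) and GSTZ1 by 0.45 (SE 0.13, limma adjusted p = 0.027). In all 7 genes both printed libraries lay above all M14A plate libraries, but the 7 were named because they were called higher, so this is no separate support. With equal totals none of the 7 was called, and SULT1A1, GSTK1, GSTO1 and GSTZ1 changed sign (-0.026, -0.057, -0.078 and -0.11).

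Genes that were not called included the UGT1A locus as a whole. UGT1A6 was 19.6 to 20.8 FPKM in M14A plate and 23.1 and 28.8 in printed cells (log2 fold change 0.35, SE 0.14, limma adjusted p = 0.086), and it still held 96.1 and 95.5% of UGT1A reads. UGT1A9 stayed at 0.300 and 0.118% of those reads. GSTM1 (0.62, limma adjusted p = 0.057) and GSTM4 (0.68, limma adjusted p = 0.067) had printed values above all plate values, GSTA4 and GSTO2 had values of 0.30 and 0.29, and NAT2 had a value of -0.28 (limma adjusted p = 0.53), with printed libraries inside the range of the plate libraries. NAT1, SULT1B1, SULT1C2, SULT2A1, UGT1A1, UGT1A8 and UGT8 had log2 fold changes from -0.24 to 0.20.

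In the printed comparison, 5 calls (GSTA1, GSTA2, GSTT2B, MGST1 and UGT2B7) remained when any 1 library was left out. Without M14A plate library 1, members were 17 higher, with GSTM1, GSTM4, GSTO2 and UGT1A6 added, and 3 lower (NAT1 at -0.36, NAT2 at -0.65 and SULT1C2 at -0.32). Without printed library 1, 5 were higher, and without printed library 2, 8 were.

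Co-substrate genes were described on the deposited scale, where 17.7% of all genes tested were higher and 15.5% lower. On the UDP-glucuronate list, which was not limited to carriers of UDP-glucuronate, 2 of 6 tested genes rose (SLC35D2 by 0.69, SLC35B1 by 0.57) and SLC35D1 fell by 0.53. For sulfate and PAPS, 0 of 10 rose (1 at an unadjusted p below 0.05 by limma) and 2 fell, the sulfate transporter SLC26A1 by 1.20 and sulfite oxidase SUOX by 1.06. For glutathione, 5 of 15 rose, among them GGCT (0.86) of the gamma-glutamyl cycle and glutathione synthetase GSS (0.63), and CHAC1, which degrades glutathione, fell by 0.81. With equal FPKM totals none of these rises was called, SLC35B1 and GSS changed sign (-0.13 and -0.10), and the 3 lists had 1, 7 and 7 genes lower. Under that scaling 6620 of all 14349 genes tested were lower.

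Of the 8 exporters 0 rose (0 at an unadjusted p below 0.05 by limma) and 2 fell, ABCC1 by 0.52 and ABCC5 by 0.45. Among all genes tested, 17.7% were higher and 15.5% lower. Of 17 receptors and factors 0 rose (1 at an unadjusted p below 0.05 by limma) and 7 fell, with HNF4A at -1.36 (SE 0.15, limma adjusted p = 7.2e-04) and CEBPB at -1.19 the furthest. Of 10 NRF2 targets 2 rose, HMOX1 by 0.93 and AKR1C2 by 0.58, and TXNRD1 fell by 0.47, while NQO1 stayed at 0.253 and 0.398 FPKM. Among the other conjugating enzymes 2 rose, among them TPMT by 0.58, and 0 of the 5 tested fell (0 at an unadjusted p below 0.05 by limma). With equal FPKM totals the 4 rises were not called and AKR1C2 and TPMT changed sign (-0.16 and -0.10), while 6 exporters, 12 receptors and factors, 5 NRF2 targets and 2 other conjugating enzymes were lower. Under that scaling 6620 of all 14349 genes tested were lower, so these counts are not particular to the lists. No exporter was called lower without HepaRG plate library 1 or 3, M14A plate library 2 or printed library 1. Receptors and factors lower numbered 3 without printed library 2 and 4 without M14A plate library 2, and no NRF2 target was lower without any 1 of the HepaRG libraries, M14A plate library 2 or printed library 2. Without printed library 1, 1 glutathione gene and none of the UDP-glucuronate genes, NRF2 targets and other conjugating enzymes were called higher. Without M14A plate library 1, 6 glutathione genes, 6 NRF2 targets, 4 other conjugating enzymes, 3 UDP-glucuronate genes, 2 sulfate genes and 1 receptor or factor were higher, and 12 receptors and factors were lower. Without M14A plate library 2, 1 UDP-glucuronate gene, 2 glutathione genes, 1 NRF2 target and 1 other conjugating enzyme were called higher. Without any 1 of the HepaRG libraries or printed library 2, 1 UDP-glucuronate gene, 2 or 3 glutathione genes and 1 other conjugating enzyme were called higher, and without M14A plate library 3, 3 glutathione genes were.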

How the data were processed

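The data were bulk RNA-seq of HepaRG plate (3 libraries), M14A plate (3) and M14A printed (2), grouped by sample title. Libraries were made with the NEBNext Ultra kit from TRIzol RNA, per the labels' protocols, with HISAT2 2.0.5 and featureCounts 1.5.0-p3 listed as tools per the submitters' processing notes. For strand setting, poly(A) selection and shared exons, the entry is: not given in the sources used here. Values are FPKM as deposited by the authors, with gene lengths. The build is not stated, but all 58735 genes have the coordinates of GENCODE 29 (GRCh38).

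FPKM times gene length gave whole reads for 100.0% of values (tolerance 0.01). The denominators used by the authors were 0.818 to 1.20 times the recovered reads and lay within 0.979 to 1.03 times median-ratio size factors, so a change is relative to the bulk of genes. For a gene of 1 kb, 1 read was worth 0.0435 to 0.0747 FPKM. Replicate pairs differed by more than sampling noise (chi-square per degree of freedom 2.69 to 69.3), so none was counted as a duplicate.

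The 14349 genes that reached 1 FPKM in 2 or more libraries were fitted on a log2(FPKM + 1) scale by limma 3.58.1 under R 4.3.3 (eBayes with trend, all 8 libraries in 1 fit, 5 residual degrees of freedom, two-sided, Benjamini-Hochberg over all genes tested, called below 0.05). The spread of the 2 printed libraries is taken from all groups. Fold changes on this scale understate those of low genes. The fit was tested on simulated data. Members and gene lists were chosen with earlier results of these data known. All tested members are named, untested ones from 20 reads in all or 1 FPKM in 1 library, and from each list up to 2 called genes in each direction; a few results under this rule are not reported here. A comparison of protein sequences was planned and not made. Promoters came from RefSeq (GRCh38.p14). Alternatives were pseudocount 0.1, no filter or 5 FPKM, median-ratio and equal-total scaling, eBayes without trend, a fit of only the 2 groups at hand, voom weights, the replicate block, summed UGT1A genes, threshold 0.01 and each library left out. Equal totals without mitochondrial genes were added after seeing the data.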

Additional observations from a re-analysis of the deposited data

How the results depend on the processing

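The fold changes of single members were compared over 19 of the 20 settings besides the reported one, without the threshold of 0.01. Of these values, 879 kept their direction and their side of the threshold, 65 kept the direction and were no longer called, 21 became called and 28 changed sign. For M14A plate against HepaRG plate, members lower numbered 5 with a filter at 5 FPKM and 15 with no filter, since fewer or more members were tested. Without a filter GSTA3, GSTM2, GSTM3, GSTM5, GSTP1, UGT1A7 and UGT1A10 were added. When each library was left out in turn, 8 to 15 members were higher and 7 to 8 lower. NAT1 changed sign with equal totals (-0.067), with equal totals without mitochondrial genes (-0.017) and over the libraries left out (-0.10 to 0.34), and it was called only without M14A plate library 1 (0.34, limma adjusted p = 0.0099). UGT8 ran from -0.21 to 0.18 over the libraries left out and was never called.

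For printed cells against M14A plate, members higher numbered 2 under each equal-total scaling, 6 when only the 2 groups were fitted, 6 at a threshold of 0.01, 9 with no filter, and 5 to 17 over the libraries left out. Members lower numbered 2 with equal totals and 0 to 3 over the libraries left out. The cause of these differences was not tested. With equal totals, values that changed sign were GSTA4 -0.13, GSTK1 -0.057, GSTM1 -0.027, GSTM4 -0.039, GSTO1 -0.078, GSTO2 -0.14, GSTZ1 -0.11, SULT1A1 -0.026, SULT1B1 -0.24, UGT1A6 -0.38 and UGT1A9 -0.043. Without mitochondrial genes, they were GSTA4 -0.035, GSTO2 -0.045, SULT1B1 -0.14, UGT1A6 -0.21 and UGT1A9 -0.030, the median of all genes was -0.39 and 13.3% of all calls were higher (45.2% in the other comparison). Over the libraries left out, values that changed sign ran from -0.36 to 0.075 for NAT1, -0.013 to 0.36 for SULT1B1, -0.33 to 0.10 for SULT2A1, -0.021 to 0.091 for UGT1A9 and -0.32 to 0.065 for UGT8. UGT2B7 was no longer called with a pseudocount of 0.1 (0.95, limma adjusted p = 0.070).

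With the replicate block, members were 10 higher and 8 lower in M14A plate and 12 higher and 0 lower in printed cells, where GSTZ1 (0.41, limma adjusted p = 0.073) was the call lost. Same-numbered HepaRG and M14A plate libraries did not deviate together (correlations of deviations from the group means across genes -0.07, 0.08 and -0.16), and the 2 same-numbered pairs of plate and printed libraries gave 0.49 and 0.36. Printed library 2 gave 0.43 with plate library 3, whose number differs, and with 2 printed libraries the deviations mirror each other, so these values do not decide whether the numbers pair the libraries. Of the 57 members, 30 did not pass the filter on low FPKM and were not tested in the reported fit.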

Other observations

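The families also held 28 rows annotated as pseudogenes or other non-coding genes. Most had few or 0 reads. GSTT2, annotated as a polymorphic pseudogene beside GSTT2B on chromosome 22, had 100 reads in all, with FPKM of 1.35, 0.110 and 1.05 in HepaRG libraries, 0.634, 0.0865 and 0.300 in those of M14A plate and 0.757 and 0.417 after printing, so it varied within groups while GSTT2B did not (9.37 to 10.9 FPKM in HepaRG plate). As the genes are close copies, their reads are uncertain. SULT1C2P1 had 47 reads, UGT1A2P 40 and GSTM2P1 17.

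UGT2B7 and UGT2A3 lie on chromosome 4 among UGT2 genes that gave 0 to 13 reads each in all libraries, although 615 and 872 reads were counted for this pair in M14A plate. UGT2B17 had 0 reads in HepaRG, 8 in M14A plate and 5 after printing. HNF4A was 6.66-fold higher in mean FPKM in edited than in wild-type plate cells and 2.66-fold lower in printed cells than in M14A plate. UGT2B7 and UGT2A3 were highest in printed cells on the deposited scale, but neither rise after printing was called with equal FPKM totals. A link between HNF4A and these genes was not tested.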
